A study of Mus musculus with 5 samples.

Results

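Slitrk3, Ostn, Zfp804a, Clvs2 and Lhfpl3 are 5 of the 23857 genes in a table of transcript abundance from sorted stromal cells of the mouse oviduct (fallopian tube). They were chosen from their measured values, as genes at about 6 to 32 TPM (a unit of transcript abundance scaled for gene length and for the total of each library) in the controls and mostly near 1 TPM or below in every library of the other group. The difference between the groups is therefore what selected them, and it is described here without a test. The 5 libraries each came from 1 young adult female mouse. Control mice 2 and 3 had the genotype Pdgfra-Cre;R26Y wild-type, a Cre recombinase transgene with a YFP reporter, and experimental mice 1, 2 and 3 were Pdgfra-Cre;Esr1(fl/fl);R26Y, in which Esr1, encoding estrogen receptor alpha, is floxed. Both groups carried the recombinase and the YFP reporter, and the cells were sorted as YFP-positive. The recombinase acts where the Pdgfra promoter is or was active, so the sorted fraction is defined by that promoter and not by estrogen receptor expression.

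Estrogen receptor alpha is a hormone-activated transcription factor that stromal and epithelial cells of the oviduct both express. The 5 genes are better known from other tissues. Slitrk3 and Clvs2 are best known from neurons, Lhfpl3 from glial precursor cells of the brain and Ostn from bone and skeletal muscle, and Zfp804a encodes a zinc finger protein whose human counterpart is known from genetic studies of psychiatric disease.

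The label of the second group was checked first against its targeted gene. Esr1 stood at 83.3 and 77.6 TPM in control mice 2 and 3 and at 28.9, 85.0 and 170 TPM in mice 1, 2 and 3 labelled conditional knockout. It lay below both controls in mouse 1 only, against the label of mice 2 and 3, so the groups are called by their labels here and Esr1 level does not separate them. Values per gene do not show whether a floxed exon was missing from the transcripts. Nor do they show which cells of a library held Esr1. Epithelial markers, described below, summed to 3028 and 3328 TPM in control mice 2 and 3. In knockout-labelled mice 1, 2 and 3 they summed to 2156, 12060 and 13150 TPM, the same order as Esr1. The part of epithelial cells in the Esr1 values was not tested. Pdgfra, whose promoter drives the recombinase, was present in every library, at 165 to 298 TPM. The relative depth, estimated from the steps between low values, ran from 47.9% of control mouse 2 in knockout-labelled mouse 1 to 82.6% in mouse 2, with 66.4% in control mouse 3 and 66.9% in knockout-labelled mouse 3. Genes at 1 TPM or more numbered 19061 and 19432 for the controls, against 17148, 18190 and 15841 for knockout-labelled mice 1, 2 and 3, so all 3 of the latter lay below both controls. The part of this difference in the low values described here was not tested.

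Slitrk3 encodes a transmembrane protein with leucine-rich repeats that binds the receptor phosphatase PTP-delta and helps to organise inhibitory synapses. It had the highest control level of the 5 genes, 31.9 TPM in control mouse 2 and 24.0 TPM in control mouse 3. In the knockout-labelled libraries it stood at 0.711, 0.669 and 0.396 TPM in mice 1, 2 and 3. All 3 values were under 1 TPM and close to each other, and the mean of 0.592 ± 0.171 TPM (SD, n = 3) was 2.12% of the control mean of 27.9 ± 5.62 TPM (SD, n = 2). The difference was -4.18 in log2(TPM + 1), a scale on which changes of low values appear smaller than they are.

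Ostn encodes osteocrin, also named musclin, a small secreted protein with natriuretic-peptide-like motifs. It binds the clearance receptor Npr3 and in that way spares natriuretic peptides from removal. Ostn was measured at 18.8 and 18.6 TPM in control mice 2 and 3, the closest agreement between controls among the 5 genes, and 0.219, 0.511 and 0.0787 TPM in knockout-labelled mice 1, 2 and 3. The lowest of these was in mouse 3 and the highest in mouse 2. Their mean of 0.270 ± 0.221 TPM (SD, n = 3) was 1.44% of the control mean of 18.7 ± 0.126 TPM (SD, n = 2). Because Ostn has 1 annotated transcript, its low values could be converted to whole reads. The depth estimate gave 2.29, 9.23 and 1.15 reads in knockout-labelled mice 1, 2 and 3, against 410 and 270 in the controls. The scale was then adjusted until the 3 low values came nearest to whole reads. They then corresponded to 2, 8 and 1 reads, against 356 and 234 reads in the controls. Read estimates of the other genes were not rescaled. With exact Poisson 95% intervals, which cover counting error only, the knockout-labelled values allow 0.0266 to 0.795 TPM in mouse 1, 0.220 to 1.01 TPM in mouse 2 and 0.00199 to 0.439 TPM in mouse 3. These 3 intervals overlap each other, so the order of the knockout-labelled libraries is not resolved at this depth. The log2(TPM + 1) difference was -3.97.

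Zfp804a stood at 12.3 and 13.0 TPM in control mice 2 and 3 and at 0.496, 0.611 and 1.09 TPM in knockout-labelled mice 1, 2 and 3. Mouse 3 was the highest of the 3, and its value was 8.59% of the control mean, against 3.91% in mouse 1. The control mean was 12.7 ± 0.486 TPM (SD, n = 2) and the knockout-labelled mean 0.732 ± 0.315 TPM (SD, n = 3), a log2(TPM + 1) difference of -2.997.

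Clvs2 encodes clavesin 2, a lipid-binding protein of the CRAL-TRIO family that sits on clathrin-coated vesicles and binds the endosomal lipid phosphatidylinositol 3,5-bisphosphate. Clvs2 was measured at 14.6 and 13.9 TPM in control mice 2 and 3 and 0.733, 1.07 and 1.61 TPM in knockout-labelled mice 1, 2 and 3. It was the gene with the highest remainder in TPM, and mouse 3 again held the highest value. The control mean of 14.2 ± 0.483 TPM (SD, n = 2) compares with a knockout-labelled mean of 1.14 ± 0.444 TPM (SD, n = 3), with 7.998% left and a log2(TPM + 1) difference of -2.85.

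Lhfpl3 encodes a membrane protein with several spanning segments, of the same family as the inner-ear protein Lhfpl5 and the inhibitory-synapse protein Lhfpl4. It was the lowest of the 5 genes in controls, at 9.08 and 6.63 TPM in mice 2 and 3, and stood at 0.758, 0.465 and 0.790 TPM in knockout-labelled mice 1, 2 and 3. Here mouse 2 was lowest. Against a control mean of 7.85 ± 1.73 TPM (SD, n = 2), the knockout-labelled mean was 0.671 ± 0.179 TPM (SD, n = 3), with 8.54% left, the largest remaining share of the 5, and a log2(TPM + 1) difference of -2.40.

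**Figure D1:**
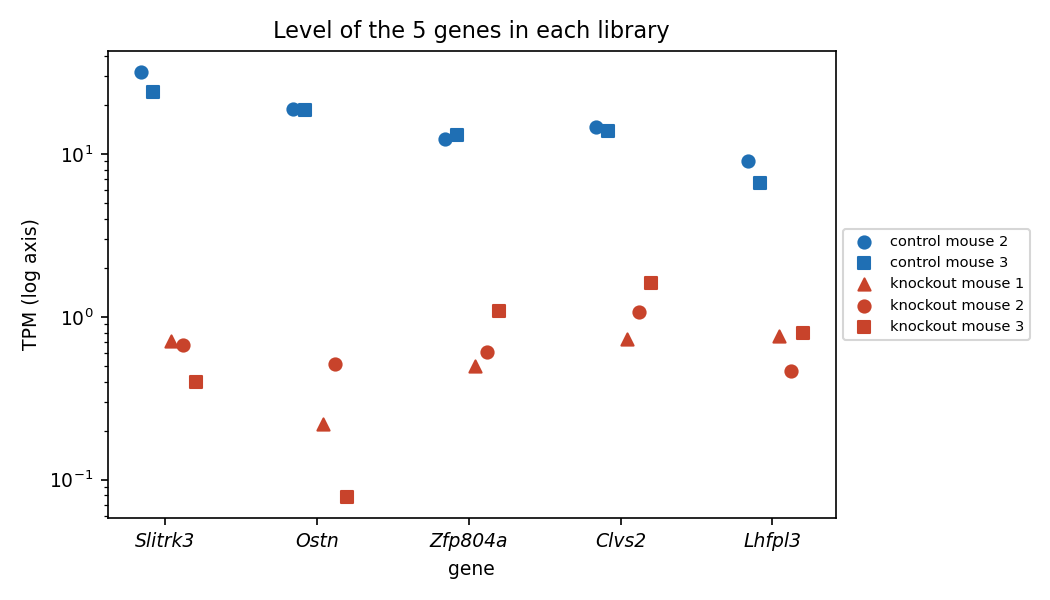
Level of each of the 5 genes in TPM on a log axis, 1 point per library, with controls in blue and knockout-labelled libraries in red. Every control point lies at 6.63 TPM or above and every knockout-labelled point at 1.61 TPM or below; the lowest point is Ostn in mouse 3, which rests on 1 read.

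The order of the genes differed between the groups. In the controls it ran Slitrk3, Ostn, Clvs2, Zfp804a, Lhfpl3, and no pair of neighbours in that order overlapped over both mice, although Clvs2 and Zfp804a lay close together. In the knockout-labelled libraries the order of the means was Clvs2, Zfp804a, Lhfpl3, Slitrk3, Ostn, and the ranges of all neighbours in that order overlapped. Slitrk3 and Ostn, the highest of the 5 in controls, thus had the lowest mean levels in the other group.

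The selection required low values in all 3 knockout-labelled libraries. The summed level of the 5 genes was 86.7 and 76.1 TPM in control mice 2 and 3 and 2.92, 3.33 and 3.97 TPM in knockout-labelled mice 1, 2 and 3. Zfp804a and Clvs2 were lowest in mouse 1 and highest in mouse 3, the same order as Esr1 in those libraries, while Slitrk3 ran the opposite way, Ostn was highest in mouse 2 and Lhfpl3 lowest there. With 3 libraries these orders are a description only. The 5 genes were low both in mouse 1, whose Esr1 was below both controls, and in mouse 3, whose Esr1 was above both. The selection fixed this in advance, so nothing about Esr1 is read from it. At the longest annotated transcript the knockout-labelled values rest on about 22.1 to 46.2 reads for Slitrk3, 20.0 to 61.3 for Zfp804a, 27.2 to 83.7 for Clvs2 and 19.9 to 29.0 for Lhfpl3, and on fewer if shorter transcripts were used, down to 5.86 for Zfp804a and 4.97 for Clvs2. In bulk libraries of sorted cells, fewer cells that express a gene and less RNA per cell cannot be told apart.

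The genes just inside and just outside the selection were compared as a description. The genes with at least 5 TPM in both controls, 12163 in number, were ordered by the ratio of the lower control to the highest knockout-labelled library, with 0.1 TPM added to both. The 5 genes held the first 5 places, with ratios of 30.6 for Ostn, 29.7 for Slitrk3, 10.5 for Zfp804a, 8.17 for Clvs2 and 7.56 for Lhfpl3, which restates how they were chosen. In the opposite direction, 0 of 11447 genes with at least 5 TPM in all 3 knockout-labelled libraries reached the ratio of Lhfpl3, a limit that the selection itself set. At a ratio of 5, there were 7 lower and 2 higher genes. The higher ones, named after their values were seen, were C7, a complement component, with a ratio of 6.62, and Cyp17a1, an enzyme of steroid hormone synthesis, with a ratio of 6.07. The first lower gene after the 5 was Defb48, a beta-defensin, at 7.61 and 8.46 TPM in control mice 2 and 3. It was at 0, 1.19 and 0 TPM in knockout-labelled mice 1, 2 and 3. Like the 5 genes, Defb48, Msmb and 1700108J01Rik had at least 6 TPM in both controls and at most 1.7 TPM in every knockout-labelled library. By the ratio of group means Defb48, at 20.2, lay above Zfp804a at 17.3, Clvs2 at 12.5 and Lhfpl3 at 11.7. After Defb48 in the order used here came Siah3, of the Siah ubiquitin ligase family, with a ratio of 5.65. Rxfp1, the receptor of the hormone relaxin, followed with a ratio of 4.92. Rxfp1 had control values of 32.7 and 23.0 TPM, against 0.429, 2.57 and 4.59 TPM in knockout-labelled mice 1, 2 and 3, so its remainder was far higher in mouse 3 than in mouse 1. The other genes named by the same order, passing over 4 with predicted-gene names (1700108J01Rik, 9530014B07Rik, 1700049E22Rik and Gm13547), were Saa3, an acute-phase protein, Cxcl2, a chemokine, Galnt5, a glycosyltransferase, Msmb, a secreted protein, Mcpt4, a mast cell protease, Mlip, a lamin-interacting protein of muscle, and Clec4e, a lectin of myeloid cells, with ratios from 4.84 down to 3.49.

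**Figure D2:**
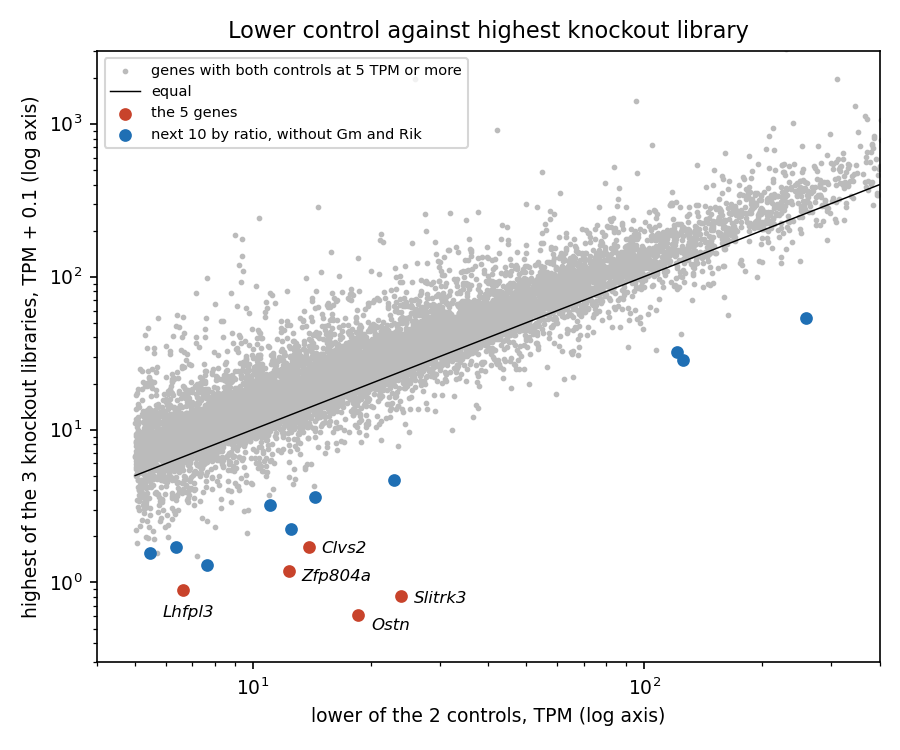
The lower control against the highest knockout-labelled library, both in TPM on log axes, with 0.1 TPM added to the latter, for genes with at least 5 TPM in both controls; axes end at 400 TPM in the lower control. The 5 genes (red) lie farthest below the line of equal values, and the next 10 genes by ratio that do not have predicted-gene names (blue) lie between them and the body of the plot.

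Likeness over the 5 libraries was measured as the root mean square distance between centred log2(TPM + 1) profiles and the mean profile of the 5 genes, whose own distances ran from 0.20 for Zfp804a to 0.47 for Slitrk3. The closest other genes were Siah3 at 0.40, Cxcl2 at 0.47, Defb48 at 0.48, Galnt5 at 0.51 and 9530014B07Rik at 0.55. Siah3 stood at 30.8 and 12.5 TPM in control mice 2 and 3 and at 1.22, 2.13 and 1.37 TPM in the knockout-labelled libraries. The gap between its controls was wider than for any of the 5 genes.

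The other members of the 4 gene families that can be told from their symbols were not chosen by their values and were tested. In a limma fit to log2(TPM + 1) over the 19292 genes with at least 1 TPM in at least 2 libraries, 5 genes, or 0.0259%, had an adjusted p under 0.05, of which 0.0156% were lower and 0.0104% higher in the knockout-labelled group. The lower ones were Slitrk3, Ostn and Zfp804a, 3 of the 5 genes that this contrast selected, from which nothing is read. All of the 5 genes described here passed that filter through their controls. Of 12 paralogs listed, 9 were tested, 0 passed the threshold and 1 had an unadjusted p under 0.05, a level reached by 13.6% of all tested genes. The groups did not overlap for 4 of the 9 tested paralogs, 3 lower and 1 higher, against 33.9% of all tested genes, of which 21.9% were lower and 11.9% higher. The median log2 difference of the tested paralogs was -0.26, beside -0.022 over all tested genes.

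Slitrk4 was the most abundant other Slitrk gene in controls, at 3.79 and 3.39 TPM in mice 2 and 3, and stood at 1.38, 2.60 and 2.41 TPM in knockout-labelled mice 1, 2 and 3 (log2 difference -0.57 ± 0.29 SE, limma adjusted p 0.420). Slitrk6 had the opposite sign, with 0.773 and 0.827 TPM in controls and 1.44, 2.33 and 2.21 TPM in the knockout-labelled libraries (0.72 ± 0.29 SE, limma adjusted p 0.352). Slitrk2 lay between 0.660 and 1.64 TPM and Slitrk5 between 0.803 and 2.57 TPM over all 5 libraries, with adjusted p in limma of 0.697 and 0.876. Slitrk1 was under 1 TPM throughout, as were Clvs1 and Zfp804b, the only close relatives of Clvs2 and Zfp804a examined. Zfp804b, although too low to be tested, was at 0.706 and 0.894 TPM in controls and at 0.172, 0.402 and 0.144 TPM in knockout-labelled mice 1, 2 and 3, without overlap.

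Among the Lhfpl genes, Lhfp (also named Lhfpl6) and Lhfpl2 were more abundant than Lhfpl3 in every library. Lhfp stood at 75.5 and 77.3 TPM in controls and at 37.6, 84.6 and 81.3 TPM in knockout-labelled mice 1, 2 and 3 (log2 difference -0.26 ± 0.35 SE, limma adjusted p 0.740), so that mouse 1 alone was low. Lhfpl2 stood at 24.5 and 21.6 TPM in controls and at 19.8, 32.4 and 33.3 TPM in those libraries (0.26 ± 0.26 SE, limma adjusted p 0.642). Lhfpl4 was lower without overlap, at 2.08 and 2.05 TPM against 1.34, 1.54 and 0.310 TPM (-0.63 ± 0.37 SE, limma adjusted p 0.465). Lhfpl1 and Lhfpl5, both under 2 TPM in every library, overlapped between the groups, with adjusted p in limma of 0.765 and 0.504.

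**Figure D3:**
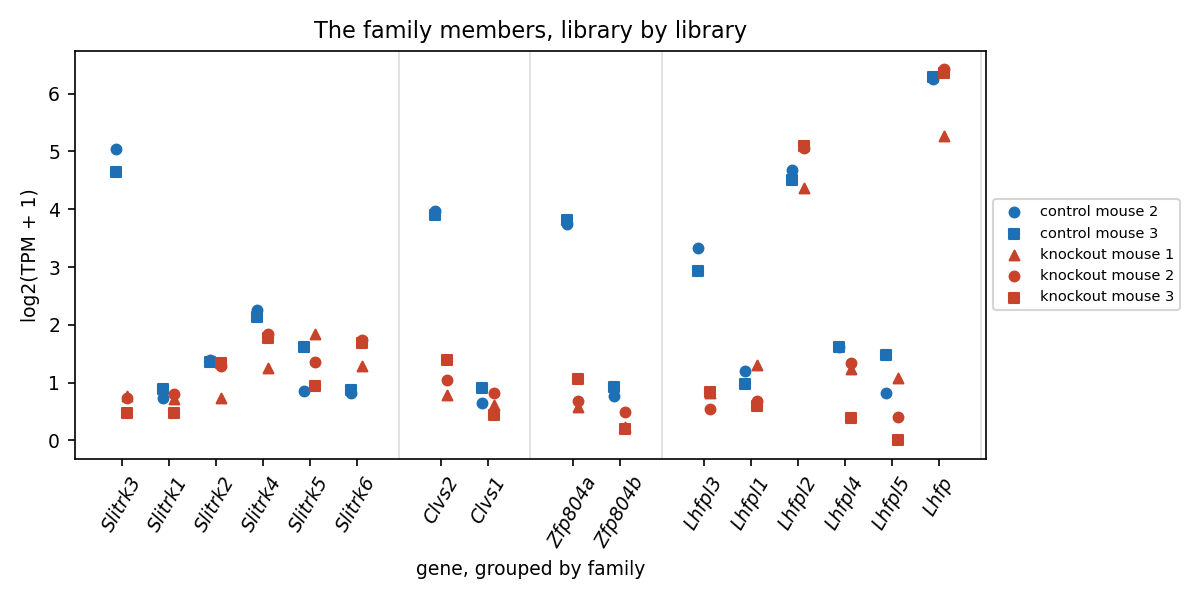
Level of each of the 5 genes with paralogs, and of the paralogs, as log2(TPM + 1), 1 point per library, grouped by family. Slitrk3, Clvs2, Zfp804a and Lhfpl3 show separate blue and red points, which the selection required. The groups were also separate for 3 lower and 1 higher of the 9 tested paralogs, against 33.9% of all tested genes. Of these 9 paralogs 0 passed the threshold, beside 0.0259% of all tested genes. The abundant Lhfp and Lhfpl2 overlap between the groups.

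Binding partners and pathway members were taken from 4 lists, for the Slitrk family, osteocrin, Clvs2 and the Lhfpl family, the last built on partners of Lhfpl4 and Lhfpl5. No list covered Zfp804a. Of 43 listed genes 41 were tested, 0 passed an adjusted p of 0.05 in limma, beside the 0.0259% called among all tested genes, and 7 had an unadjusted p under 0.05, beside 13.6% of all tested genes. Their median log2 difference was -0.043, 16 positive and 25 negative.

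The Slitrk partners comprised the presynaptic receptor phosphatases, neurotrophin receptors and related adhesion proteins, 8 of 9 tested. Ptprd, the phosphatase that Slitrk3 binds, was at 39.7 and 42.6 TPM in control mice 2 and 3 and at 47.3, 74.9 and 71.2 TPM in knockout-labelled mice 1, 2 and 3 (log2 difference 0.61 ± 0.23 SE, limma adjusted p 0.342). It was thus above both controls in all 3, opposite in sign to Slitrk3. Ntrk3, the receptor of neurotrophin-3, was also above both controls, at 6.47 and 9.35 TPM against 17.4, 15.5 and 17.3 TPM (1.01 ± 0.22 SE, limma adjusted p 0.188). Ntrk2, the receptor of BDNF, was at 71.7 and 55.9 TPM in controls and at 64.2, 26.9 and 20.9 TPM in the knockout-labelled libraries (-0.91 ± 0.44 SE, limma adjusted p 0.407), with mouse 1 among the controls. Without the library of knockout-labelled mouse 1 Ptprd (0.81, limma adjusted p 0.0233) and Ntrk2 (-1.38, limma adjusted p 0.0198) passed the threshold. That fit called 499 lower and 1024 higher genes among all 19292 tested. Ptprs, Ptprf, Il1rap and Lrrc4b had adjusted p in limma of 0.466, 0.830, 0.877 and 0.307, and of these Lrrc4b had the largest difference (-0.75 ± 0.25 SE).

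The natriuretic list, 11 of 11 tested, held the receptors, ligands and cyclic GMP effectors of the pathway that osteocrin touches. Npr3, the receptor that binds osteocrin, was at 6.22 and 6.14 TPM in control mice 2 and 3 and at 3.64, 5.92 and 4.06 TPM in knockout-labelled mice 1, 2 and 3 (log2 difference -0.40 ± 0.26 SE, limma adjusted p 0.509). The signalling receptors were more abundant than Npr3. Npr1 lay between 152 and 181 TPM over all libraries (-0.043 ± 0.16 SE, limma adjusted p 0.910) and Npr2, the receptor of C-type natriuretic peptide, between 60.1 and 99.96 TPM (0.074 ± 0.24 SE, limma adjusted p 0.894). Among the ligands, Nppc was the most abundant, at 10.4 to 23.3 TPM (0.12 ± 0.34 SE, limma adjusted p 0.875). Nppb was at 2.95 and 2.53 TPM in controls and at 0.869, 0.508 and 0 TPM in knockout-labelled mice 1, 2 and 3 (-1.40 ± 0.35 SE, limma adjusted p 0.206), below both controls in each. It passed the threshold with library weights (-1.41, limma adjusted p 0.0483), a fit that called 396 lower and 260 higher genes among all 19292 tested. Furin, a protease that cleaves prohormones, Prkg1, a cyclic GMP-dependent kinase, and Pde5a, which breaks cyclic GMP down, had adjusted p in limma of 0.927, 0.753 and 0.652.

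In the list for Clvs2, of CRAL-TRIO lipid carriers, clathrin chains and enzymes of phosphatidylinositol 3,5-bisphosphate, 14 of 14 were tested. Cltc, the clathrin heavy chain, ranged from 215 to 288 TPM with overlapping groups (log2 difference 0.11 ± 0.19 SE, limma adjusted p 0.801), and Clta, a light chain, from 112 to 193 TPM (0.39 ± 0.22 SE, limma adjusted p 0.454). Pikfyve, the kinase that makes the lipid, was at 12.6 to 15.5 TPM (-0.11 ± 0.18 SE, limma adjusted p 0.792), and Vac14 and Fig4 of the same complex had adjusted p in limma of 0.676 and 0.980. Sec14l1, Sec14l3, Sec14l4, Ttpal and Cltb were likewise not called, with adjusted p in limma of 0.876, 0.582, 0.969, 0.975 and 0.730. The groups did not overlap for 2 of the 14, both lower, beside 21.9% of all tested genes that were lower without overlap. These were the retinaldehyde carrier Rlbp1 (-0.77 ± 0.30 SE, limma adjusted p 0.343) and Sec14l2 (-0.75 ± 0.28 SE, limma adjusted p 0.341).

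The list for the Lhfpl family, of inhibitory synapse and hair cell transduction genes, had 8 of 9 members tested and a median log2 difference of -0.39, with 7 of 8 negative. Pcdh15, a tip-link cadherin of hair cells, was at 2.71 and 2.58 TPM in control mice 2 and 3 and at 0.499, 1.07 and 0.964 TPM in knockout-labelled mice 1, 2 and 3 (-0.996 ± 0.29 SE, limma adjusted p 0.243). Nlgn2 and Gphn, proteins of inhibitory synapses that are also made elsewhere, were the abundant members, at 38.0 to 48.2 TPM (limma adjusted p 0.722) and 24.1 to 30.8 TPM (limma adjusted p 0.730).

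Position was examined because the rule did not use it. In the RefSeq annotation of GRCm38.p6, the assembly also called mm10, Slitrk3 lies at chr3:73047066-73057953, Ostn at chr16:27307641-27351209, Zfp804a at chr2:82050129-82259879, Clvs2 at chr10:33512286-33624684 and Lhfpl3 at chr5:22746054-23275597. Each is on a different chromosome. The 2 nearest listed genes on each side of each gene made 20 neighbours, of which 8 were under 1 TPM in every library and 11 were tested. Of those 11, 0 passed the threshold in limma and 2 had an unadjusted p under 0.05 (13.6% of all tested genes). The groups did not overlap for 4 lower and 2 higher neighbours, against 21.9% and 11.9% of all tested genes. Their median log2 difference was -0.11.

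Trdn, which encodes the muscle calcium-release protein triadin and lies 35.6 kb from Clvs2, had the largest difference among the neighbours. It was at 11.1 and 8.64 TPM in control mice 2 and 3 and at 0.752, 3.94 and 3.87 TPM in knockout-labelled mice 1, 2 and 3 (log2 difference -1.64 ± 0.48 SE, limma adjusted p 0.253). All 3 values were below both controls. Trdn passed the threshold only without the library of mouse 1 (-1.14, limma adjusted p 0.0405). That fit called 499 lower and 1024 higher genes among all 19292 tested. Uts2b, the gene of a urotensin-related peptide 2.11 kb from Ostn, was at 1.04 and 1.85 TPM in controls and at 0.588, 0.687 and 0.141 TPM in the knockout-labelled libraries (-0.73 ± 0.34 SE, limma adjusted p 0.390). Gm20754, 8.40 kb from Slitrk3, had a difference of -0.95 ± 0.33 SE (limma adjusted p 0.318). The most abundant neighbours, Kmt2e and Ccdc50, had overlapping groups. Ccdc50, beside Ostn, was at 49.8 to 64.7 TPM (-0.11 ± 0.17 SE, limma adjusted p 0.764). Kmt2e, a chromatin regulator beside Lhfpl3, was at 95.2 to 114 TPM (-0.0056 ± 0.16 SE, limma adjusted p 0.987). The remaining tested neighbours, Gm20319, Gmnc, Mir684-1, Nup35, Gm9057 and 5031425E22Rik, had adjusted p in limma from 0.425 to 0.834. Of these, 5031425E22Rik was lower and Nup35 and Gm9057 were higher without overlap.

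**Figure D4:**
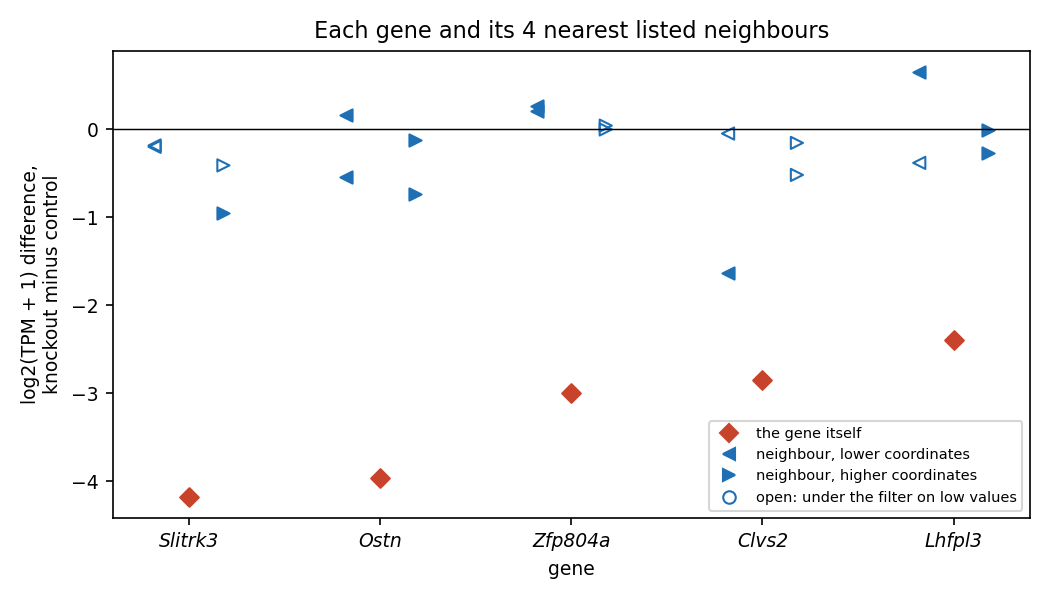
Difference in log2(TPM + 1), knockout-labelled minus control, for each of the 5 genes (diamonds) and the 4 nearest listed genes around it (triangles; open where the gene was under the filter on low values). The 5 genes lie between -4.18 and -2.40, and the lowest neighbour is Trdn beside Clvs2 at -1.64.

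Long non-coding genes run over the start of Lhfpl3 and of Clvs2 on the opposite strand. A930003O13Rik, over the start of Lhfpl3, was at 0.655 and 0.656 TPM in controls and at 0.452, 0.151 and 0.232 TPM in knockout-labelled mice 1, 2 and 3, and Gm15939, over the start of Clvs2, lay between 0.332 and 0.640 TPM in all libraries. Both were under 1 TPM throughout. Whether the counting used strand is not given in the sources used here, and without strand the reads of such overlapping pairs cannot be told apart.

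Promoter sequence from RefSeq on GRCm38.p6 was found for 4 of the 5 genes, not for Ostn. Of the 250 bases before the listed start, those outside the exons of protein-coding genes are shown. For Zfp804a a short run within an exon is shown instead. The sequence was examined because estrogen receptor alpha binds DNA directly. The shared direction of the 5 genes was set by the selection and gives no reason to look for a common motif. Each run is 5′ to 3′ on the strand of the gene, and capitals mark matches to the motifs named after it.

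Slitrk3, chr3:73057067-73057316, minus strand: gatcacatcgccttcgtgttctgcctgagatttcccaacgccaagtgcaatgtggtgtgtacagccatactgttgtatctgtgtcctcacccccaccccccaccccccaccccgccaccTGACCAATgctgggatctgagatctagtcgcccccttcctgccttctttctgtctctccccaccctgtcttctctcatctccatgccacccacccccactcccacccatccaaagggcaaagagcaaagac

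Lhfpl3, chr5:22745804-22746053, plus strand: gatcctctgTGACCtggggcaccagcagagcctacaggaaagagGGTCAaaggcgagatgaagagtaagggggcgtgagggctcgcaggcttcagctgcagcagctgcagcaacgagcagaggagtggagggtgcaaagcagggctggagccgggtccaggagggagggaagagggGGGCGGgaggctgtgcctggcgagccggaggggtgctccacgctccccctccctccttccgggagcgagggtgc

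Clvs2, chr10:33624770-33624934, minus strand, the outer 165 bases: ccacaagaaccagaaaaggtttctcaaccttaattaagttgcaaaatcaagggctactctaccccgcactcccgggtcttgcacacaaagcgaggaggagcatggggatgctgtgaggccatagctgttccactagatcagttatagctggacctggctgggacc

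Zfp804a, chr2:82053474-82053502, plus strand, 29 bases around its half-site match, within a GENCODE M21 exon of the gene: ccgcgcgggctcTGACCgctcCCGCCCgg

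The motifs searched on both strands were the full estrogen response element GGTCANNNTGACC, its half-site GGTCA, the AP-1 motif TGANTCA, the GC box GGGCGG, the TATA box TATAAA and the CCAAT box CCAAT. The full element was found in 0 of the 4 windows and in 0.0639% of 32851 windows of the same length. A half-site was found in the windows of Slitrk3, Zfp804a and Lhfpl3, against 35.2% of all windows, and that of Lhfpl3 held 2, at positions -241 and -206 from the start. In Slitrk3 the half-site at -131 overlaps a CCAAT box at -128, and CCAAT boxes were present in 33.8% of all windows. GC boxes were present in the windows of Zfp804a, with 3, and Lhfpl3, against 32.7% of all windows. The AP-1 motif and the TATA box were found in none of the 4 windows, against 6.75% and 12.4% of all windows, and the window of Clvs2 held none of the 6 motifs. Base composition differed as well, from 78.4% G and C in the window of Zfp804a to 52.0% in that of Clvs2, where the median window had 52.4%. A match is a description of letters, and nothing follows from it about binding. The RefSeq spans of Slitrk3 and Zfp804a extend outward beyond these start sites. All 250 bases of the window of Zfp804a and 85 of those of Clvs2 lie in exons of protein-coding genes. Their motifs and base composition are therefore not those of promoter sequence alone.

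Markers of other cells that the sorted fraction could hold were set beside the 5 genes, and counts of markers below both controls are to be read against the 21.9% of all tested genes that lay there. Neuronal markers, 10 of 12 tested, summed to 39.5 and 48.4 TPM in control mice 2 and 3 and to 39.9, 52.4 and 55.2 TPM in knockout-labelled mice 1, 2 and 3. The summed level in mouse 1 lay between the controls and in mice 2 and 3 above both. Without Syt1, the most abundant of them, the sums were 31.0 and 35.8 TPM in controls and 23.8, 35.9 and 28.5 TPM in the others. Of the neuronal markers, 5 of the 10 tested markers were below both controls in all 3 libraries and 1 was above. The highest value of each marker ran from 1.01 TPM for the synaptic vesicle fusion gene Snap25 to 26.7 TPM for Syt1. For the neuronal nuclear marker Rbfox3 it was 2.27 TPM. Schwann and other glial markers summed to 212 and 89.95 TPM in controls and to 59.5, 93.2 and 139.6 TPM in the knockout-labelled libraries. Ngfr was the largest component of the control sums, at 176 and 46.9 TPM. Without Ngfr the sums were 36.0 and 43.1 TPM in controls and 33.3, 77.7 and 120.5 TPM in knockout-labelled mice 1, 2 and 3. S100b made up 29.5 and 72.2 TPM of these in mice 2 and 3, against 4.57 and 4.03 TPM in controls. Olig2, which marks the glial precursors known for Lhfpl3, was at or under 1.04 TPM in every library. In the same list Olig1 reached 1.94 TPM and Sox10 2.76 TPM, and Cspg4 lay between 5.5 and 9.2 TPM. Skeletal muscle and bone markers, the tissues known for Ostn, summed to 18.4 and 30.3 TPM in controls and to 14.5, 19.5 and 9.66 TPM in the others, with 3 of 9 tested markers below both controls. Without Bglap, at 12.67 TPM in control mouse 3, the sums were 16.77 and 17.67 TPM in controls. In knockout-labelled mice 1, 2 and 3 they were then 11.75, 16.55 and 8.46 TPM, all below both controls.

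Markers of the other fractions follow. Stromal markers summed to 23590 and 19060 TPM in controls and to 16020, 11850 and 13820 TPM in the knockout-labelled libraries, with 5 of 8 below both controls, among them Lum at 2383 and 1740 TPM against 427, 448 and 671 TPM. Immune markers summed to 468 and 524 TPM against 364, 248 and 152 TPM, with 7 of 8 below both controls. Of 5 mesothelial markers 3 were lower and 2 higher without overlap, and Msln was at 123 and 99.6 TPM against 30.4, 45.2 and 44.4 TPM. Smooth muscle markers summed to 632 and 429 TPM against 531, 492 and 474 TPM, and endothelial markers to 191 and 219 TPM against 152, 229 and 143 TPM. Epithelial markers summed to 3028 and 3328 TPM in controls and to 2156, 12060 and 13150 TPM in knockout-labelled mice 1, 2 and 3. Ovgp1, the gene of oviductal glycoprotein 1, made up most of these sums, at 2273 and 2463 TPM in controls and 1522, 10660 and 11260 TPM in the others, and without it they were 754.6 and 865.5 TPM against 633.8, 1402 and 1890 TPM. The epithelial sum was thus below both controls in knockout-labelled mouse 1 and above both in mice 2 and 3. The 5 genes, selected to be low in all 3 of those libraries, summed there to 2.92, 3.33 and 3.97 TPM. None of these 9 marker lists held a gene past the threshold in limma, with 19 of 75 tested markers at an unadjusted p under 0.05, against 13.6% of all tested genes. Apart from these values, the part of other cell types in the difference was not tested.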

How the data were processed

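RNA of YFP-positive oviduct cells was measured by sequencing in 5 libraries, 2 control and 3 labelled Esr1 conditional knockout. Per the labels, libraries were made from total RNA with a low-input SMARTer mRNA kit. The authors deposited TPM per gene. The table's name gives STAR as the aligner and the submitters' processing notes give mm10. The counter, the annotation and the strand setting are not given in the sources used here.

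Values were fitted as log2(TPM + 1) with limma 3.58.1 in R 4.3.3 (lmFit, eBayes with trend, genotype as the only term) over genes with at least 1 TPM in at least 2 libraries, two-sided, with Benjamini-Hochberg adjustment and a threshold of 0.05. The fit and the read estimate were tested on simulated data. The 5 genes, the lists and the tests were chosen with earlier results of these data known. The 5 genes get no test, since this contrast selected them. Named besides them are all listed paralogs, list genes with a mean of at least 5 TPM or past the threshold (and, chosen after their values were seen, Nppb, Pcdh15, Rlbp1, Sec14l2 and the single markers), the 2 nearest genes on each side, the 10 next genes by ratio without predicted-gene names (Gm or Rik) and the 5 closest profiles. TPM is a share of each library, and it keeps no total depth. Reads were estimated from the steps between low values of 2442 genes with 1 transcript in GENCODE M21. Without molecular identifiers, reads can be copies of 1 molecule. Python 3.11.15 was used for these steps.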

Additional observations from a re-analysis of the deposited data

How the results depend on the processing

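All alternatives were planned. The mean log2 difference of the 5 genes was -3.28. It was -4.44 with a pseudocount of 0.1 and -3.49 without Rpph1 and Rn45s, the most abundant RNAs, and ran from -3.36 to -3.20 over the 5 fits without 1 library each. Of 50 values of single genes under alternatives, 0 reversed and 6 moved by more than the spread between mice, 5 of them with the pseudocount of 0.1. The cause was not tested.

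The fit as reported called 3 lower and 2 higher genes (limma adjusted p under 0.05). A pseudocount of 0.1 left 0 and 0, with 2233 genes under an unadjusted p of 0.05, and so did a minimum mean of 5 TPM, with 1389 such genes. Leaving out Rpph1 and Rn45s gave 5 lower genes. The higher genes were 1 when low values were not filtered and 0 under median-of-ratios scaling (3000 genes under an unadjusted p of 0.05) and under eBayes without trend (2800 genes). Library weights gave 396 lower and 260 higher. Without 1 library each the counts ran from 0 to 499 lower and from 0 to 1024 higher. The high counts came without knockout-labelled mouse 1, and 0 in both directions came without control mouse 2, control mouse 3 or knockout-labelled mouse 2 (1229, 1186 and 2422 genes under an unadjusted p of 0.05). Without a control mouse, the lone control was assumed to vary like the other group.

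Called partner and pathway genes, 0 in the fit as reported, numbered 3 with library weights (Ptprd, Ntrk3 and Nppb) and ran from 0 to 2 over the fits without 1 library each. Called neighbours ran from 0 to 1 over those fits. Called paralogs stayed at 0 in all 13 alternatives.

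With the mouse number as a replicate block, 693 lower and 1165 higher genes and 3 partner genes (Ptprd, Ntrk2 and Ntrk3) were called, and the mean of the 5 genes was -3.24. Mouse 1 has no partner, so this fit gave the same differences as the fit without knockout-labelled mouse 1. The 2 fits are not separate evidence. Deviations of same-numbered mice from their group means correlated at -0.060 and -0.072 across genes. With 2 controls the control deviations mirror each other. The 2 correlations are therefore not independent and do not settle whether the mice were paired. The labels name no pairing beyond the number. Depth limits the lowest values most, 1 to 8 reads for Ostn.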
